A study of Mus musculus with 44 samples.

Results

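The NF-kB pathway and activation genes Cd83, Traf1, Icam1, Birc3, Bcl3, Nfkbia, Nfkb1, Nfkb2 and Relb, were followed across mouse lymphomas. They were taken by symbol from the annotation of the array's probe sets, which are groups of short oligonucleotides that together report the RNA of 1 gene. Of the 9 genes, 8 had a probe set among the 12393 genes named on the array, with 13 probe sets between them. Nfkb1 was not analysed here. All 8 measured genes passed the filter on low values, which kept 8652 genes.

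The samples came from Eµ-myc mice, in which an immunoglobulin heavy chain enhancer drives a Myc transgene in B lineage cells and B cell tumours arise. Total RNA of 43 lymphomas and 1 spleen was hybridised to one-colour Affymetrix mouse arrays, 1 array per sample, and all samples shared the Eµ-myc transgene. No age, sex or treatment is stated, and it is not given whether every lymphoma is from another animal, whether the spleen was free of tumour, or which samples were frozen as tissue and which as a cell pellet. Lymphomas are named by the number in their titles (D34 to D163), and the spleen is D168. P-values measure only the spread between these arrays.

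Levels are log2 expression values, so that a difference of 1 is a doubling. The column medians formed 2 sets, 36 lymphomas from D34 to D117 (set 1) and 7 lymphomas from D121 to D163 together with the spleen (set 2). Levels were therefore read within a set, and values across lymphomas are given relative to the mean of their set. The mean level of 9 pan B cell genes ran from 7.33 to 10.77 in set 1, lowest in D92 and next lowest in D59, and from 9.79 to 11.05 in set 2. In bulk RNA, fewer cells of a type and less RNA per cell cannot be told apart.

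NF-kB is a family of paired transcription factors. In resting cells the inhibitor encoded by Nfkbia holds the classical dimers in the cytoplasm, until the IKK kinase complex marks it for destruction. In the alternative route, receptors such as CD40 and the lymphotoxin beta receptor release a kinase that lets the precursor encoded by Nfkb2 be cut to its active form, which pairs with the product of Relb. NF-kB raises transcription of several of its own parts and brakes, including Nfkbia, Nfkb2, Relb and Bcl3, and of surface and survival genes that mark B cells stimulated through CD40 or the antigen receptor.

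The start regions of genes under this feedback are shown because the measured genes rose together across the lymphomas described below. RefSeq start regions (GRCm38.p6, 250 bases before to 50 after the annotated start) were held for 6 of the 8 measured genes, in 8 windows of 300 bases. In the lines that follow, read 5′ to 3′ along the gene's strand, capitals mark matches on either strand to the consensus kB site GGGRNNYYCC. It is a pattern for the 10-base element that NF-kB dimers bind, where R is A or G, Y is C or T and N is any base. For Nfkb2 the windows of the first 2 annotated starts are shown, chr19:46304487-46304786 and chr19:46305445-46305744, both on the plus strand. Nfkbia lies at chr12:55492598-55492897, Bcl3 at chr7:19822706-19823005 and Traf1 at chr2:34961723-34962022, all on the minus strand, and Traf1 is shown as a window without a match.
Nfkb2, first start: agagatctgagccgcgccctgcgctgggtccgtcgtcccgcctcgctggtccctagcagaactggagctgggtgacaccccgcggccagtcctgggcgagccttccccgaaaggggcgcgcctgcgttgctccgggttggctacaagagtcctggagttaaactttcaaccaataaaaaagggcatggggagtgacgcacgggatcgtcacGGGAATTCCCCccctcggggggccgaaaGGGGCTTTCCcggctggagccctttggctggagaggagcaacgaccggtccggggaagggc
Nfkb2, second start: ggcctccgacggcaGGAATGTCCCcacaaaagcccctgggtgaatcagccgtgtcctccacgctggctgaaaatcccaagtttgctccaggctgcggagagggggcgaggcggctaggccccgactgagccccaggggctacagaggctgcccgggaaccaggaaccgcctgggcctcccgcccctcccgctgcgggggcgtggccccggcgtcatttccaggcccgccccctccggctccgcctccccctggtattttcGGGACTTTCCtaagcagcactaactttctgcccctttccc
Nfkbia: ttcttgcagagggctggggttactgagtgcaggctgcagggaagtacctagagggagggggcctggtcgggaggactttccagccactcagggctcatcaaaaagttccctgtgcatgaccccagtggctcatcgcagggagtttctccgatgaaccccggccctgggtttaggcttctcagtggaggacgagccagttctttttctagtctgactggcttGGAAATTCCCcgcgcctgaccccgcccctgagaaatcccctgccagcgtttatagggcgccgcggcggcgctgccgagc
Bcl3: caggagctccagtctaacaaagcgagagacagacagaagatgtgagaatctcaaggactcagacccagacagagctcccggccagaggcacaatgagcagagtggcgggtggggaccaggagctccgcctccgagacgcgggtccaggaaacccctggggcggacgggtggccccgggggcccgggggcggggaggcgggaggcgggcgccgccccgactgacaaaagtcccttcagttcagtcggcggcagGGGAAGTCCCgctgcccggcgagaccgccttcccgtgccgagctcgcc
Traf1: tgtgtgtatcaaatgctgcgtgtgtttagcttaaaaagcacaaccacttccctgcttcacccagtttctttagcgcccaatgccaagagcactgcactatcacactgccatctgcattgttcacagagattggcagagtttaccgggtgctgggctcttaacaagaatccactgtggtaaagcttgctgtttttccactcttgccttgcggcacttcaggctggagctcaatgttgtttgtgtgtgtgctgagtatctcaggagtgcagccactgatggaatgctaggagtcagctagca

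In the first Nfkb2 window, overlapping matches began 39 and 38 bases before the start and another match 11 bases before it. In the second window, a match began 236 bases before the start, and another at base 11 after it. The match of Nfkbia began 29 bases before the start and that of Bcl3 at base 3 after it. The window of the third annotated Nfkb2 start overlaps the second and held the same match as that at base 11. In all, 3 of 6 genes held a consensus match, against 9.55% of 27025 genes in the whole table. The windows of Traf1, Birc3 and Icam1 held none. These letter matches are a description and not evidence of binding.

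Relb, the subunit of the alternative route, ran in set 1 from 4.43 through a median of 5.67 to 8.09, and in set 2 from 5.62 through 6.18 to 7.92, with 6.26 in the spleen. D89 was highest and D58 lowest, and both sets ran through the level of the spleen. Nfkb2 had 2 probe sets that behaved differently. On the brighter one, used in the fits below, set 1 lay between 7.02 and 7.91 (median 7.39) and set 2 between 7.89 and 8.63 (median 8.01), with 8.15 in the spleen. On the other, set 1 ran from 6.13 through 6.86 to 9.02 and set 2 from 6.77 through 7.32 to 9.43, with 7.75 in the spleen. Their SD over the 43 lymphomas was 0.22 and 0.81, so the brighter probe set showed little of the spread that the other recorded. Relb had an SD of 1.03, against a median of 0.339 over all kept genes.

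Nfkbia, the inhibitor, ran in set 1 from 10.46 through 11.19 to 12.56, and in set 2 from 11.53 through 11.73 to 12.76, with 12.13 in the spleen. D89 was highest and D63 lowest relative to their set. All 4 Nfkbia probe sets ranked the lymphomas alike, with a Pearson r of 0.95, 0.95 and 0.97 between the one used and the others. Bcl3, an inhibitor-like nuclear protein that binds certain NF-kB dimers at DNA, ran in set 1 from 4.59 through 5.52 to 8.92, and in set 2 from 5.54 through 6.30 to 9.09. The spleen, at 8.63, was near the top of set 2, with 1 lymphoma above it. Bcl3 spread over 4.34 log2 units once sets were centred, and only Cd83 spread further among the 8 genes.

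Traf1, an adaptor that joins TNF receptors to ubiquitin ligases, ran in set 1 from 3.82 through 4.70 to 7.02, and in set 2 from 4.86 through 5.13 to 7.32, with 5.52 in the spleen. D117 was highest and D64 lowest. Birc3, a ubiquitin ligase of the same receptor complexes that limits cell death, kept closer to one level. It ran in set 1 from 8.47 through 9.55 to 10.43 and in set 2 from 8.95 through 9.68 to 10.70, with 9.69 in the spleen. Its dimmer probe set correlated with the one used at r = 0.60. Birc3 and Nfkbia had SDs of 0.47 and 0.52, against 0.91 for Traf1.

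Icam1, an adhesion molecule that binds integrins on T cells, ran in set 1 from 6.92 through 7.98 to 9.64 and in set 2 from 6.76 through 8.67 to 9.98, with 8.22 in the spleen. D163 was highest and D151, also of set 2, lowest. Cd83, a surface protein of activated B cells and mature dendritic cells, ran in set 1 from 4.66 through 5.58 to 10.93 and in set 2 from 5.66 through 6.96 to 11.33, with 6.94 in the spleen. Its SD of 2.02 was the 22nd highest of 8652 genes. D163 held the highest value of set 2 for each of the 8 genes.

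**Figure D1:**
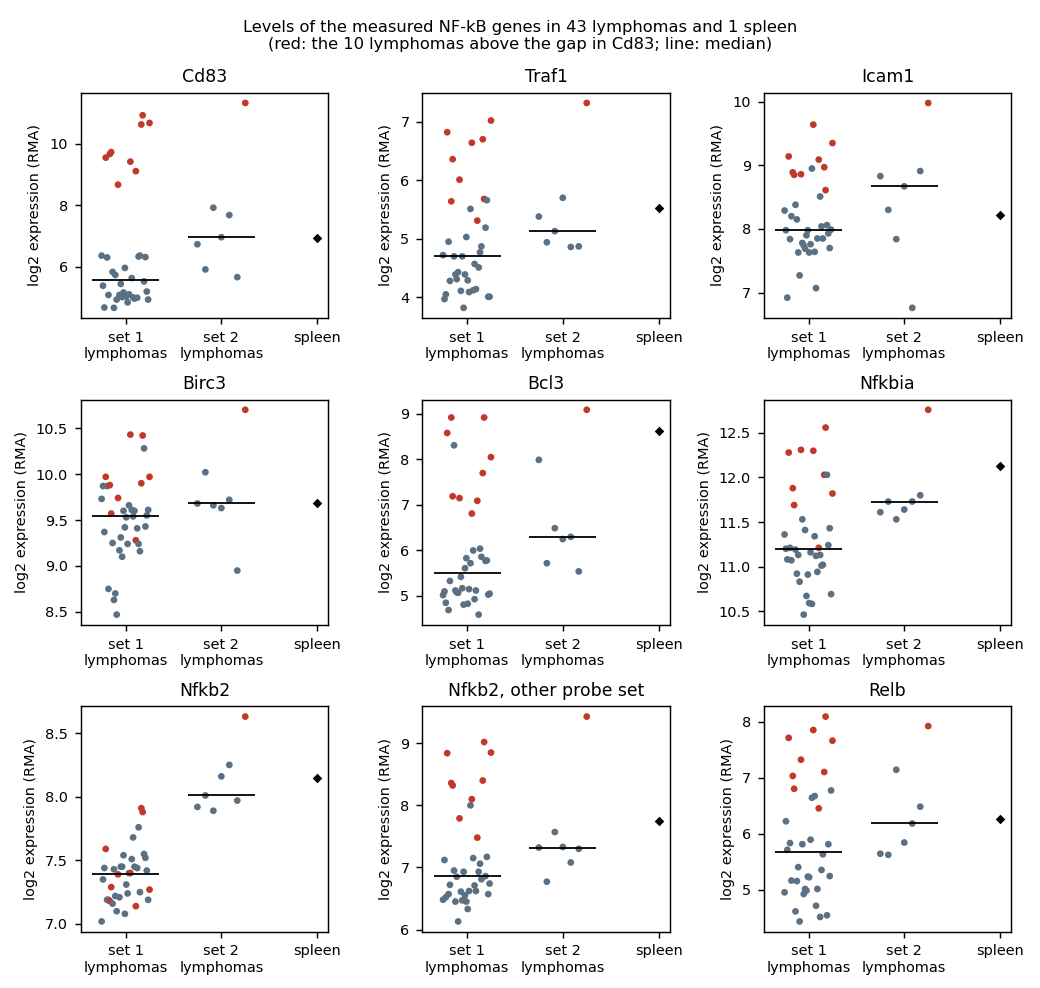
Level of each measured gene (log2 RMA expression, vertical axis) in the 36 lymphomas of set 1, the 7 of set 2 and the 1 spleen, with 1 point per array, a line at the median, and both probe sets of Nfkb2. Red points are the 10 lymphomas above the gap in Cd83, which reach 11.33 for Cd83, and the spleen lies within the range of the set 2 lymphomas in every panel.

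Cd83 fell into separate groups of lymphomas. After centring, 33 lymphomas lay between -1.85 (D56) and 0.46 (D135) and 10 between 2.16 and 4.43, with a gap of 1.70 between the groups and 0.65 at the next widest gap. The 10 were D89 at 4.43, D117 at 4.18, D88 at 4.13, D163 at 3.88, D53 at 3.23, D52 at 3.17, D46 at 3.05, D78 at 2.91, D83 at 2.61 and D59 at 2.16. Of these, 9 belonged to set 1 and 1 to set 2. Fitted as a mixture of 2 normal distributions, Cd83, the varying Nfkb2 probe set and Bcl3 met the criterion for separate groups, with 33 and 10, 33 and 10, and 31 and 12 lymphomas. The bright Nfkb2 probe set and every probe set of Relb, Traf1, Icam1, Birc3 and Nfkbia did not meet it.

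The other genes were read lymphoma by lymphoma on the same order. In all 10 lymphomas above the gap in Cd83, the values of Traf1, Icam1, Bcl3, Relb and the varying Nfkb2 probe set lay over the mean of their set. Birc3 and Nfkbia did so in 9 of the 10, with D83 the exception in both (-0.23 and -0.11), and the bright Nfkb2 probe set in 6. Of the 10 lymphomas with the highest Traf1, 9 were above the gap in Cd83, and the same held for Icam1, Relb, Nfkbia and the varying Nfkb2 probe set. The share was 8 of 10 for Bcl3, 7 of 10 for Birc3 and 4 of 10 for the bright Nfkb2 probe set. Such overlap was not counted over all kept genes, of which 18.3% rose with Cd83 in the regression below. It is therefore not shown to be particular to these genes.

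Single lymphomas departed from this order. Bcl3 was high in D55 (2.32) and D121 (1.23), whose Cd83 was below its set mean (-0.68 and -0.72) and whose Relb was low (-1.26 and -0.77). These 2 lymphomas had T cell scores of 1.03 and 1.20 and pan B cell levels of -0.83 and -0.57 relative to their set. The part of other cells in their values was not tested. D75, at -1.41 for Cd83, had Traf1 at 0.57, Icam1 at 0.78, Relb at 0.77 and the varying Nfkb2 probe set at 0.85, with Nfkbia at -0.73. D92, with the lowest pan B cell level, had Nfkbia at 0.71 and Birc3 at 0.77 beside Relb at -1.34. D59, above the gap, had the highest macrophage score (3.08) and the highest score of stroma and endothelium genes (4.74) of all lymphomas. A score here is the mean of a list of marker genes relative to the set mean.

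**Figure D2:**
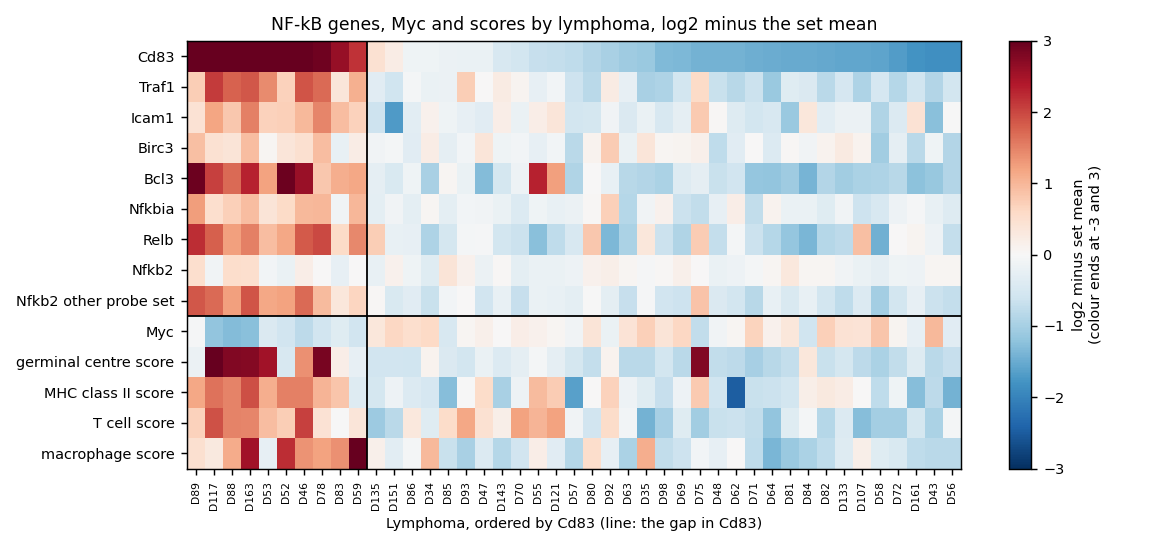
Values of the measured genes, Myc and 4 scores (rows) in each of the 43 lymphomas (columns, ordered by Cd83), as log2 minus the mean of the set, with colours ending at -3 and 3. The vertical line marks the gap in Cd83 between D59 (2.16) and D135 (0.46), and Traf1, Icam1, Bcl3, Relb and the other Nfkb2 probe set are red in all 10 columns to its left.

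To ask whether the genes rose and fell together, every kept gene was regressed on each measured gene in turn with limma, set as a covariate, at a Benjamini-Hochberg adjusted p of 0.05 over all kept genes. Members rose with each other in 44 of 56 ordered pairs and fell in none. On Cd83, 6 of the other 7 genes rose, where 18.3% of all genes rose. On Traf1, Icam1, Bcl3 and Relb, 6 of 7 rose as well, against 18.6%, 18.1%, 19.2% and 15.7% of all genes. On Birc3 and Nfkbia all 7 rose, against 11.6% and 17.4%.

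Per SD of Cd83, Bcl3 rose by 1.10 ± 0.10 log2 units (SE, limma adjusted p = 1.12e-10), Relb by 0.81 ± 0.10 (9.88e-09) and Traf1 by 0.79 ± 0.07 (2.55e-11). Icam1 rose by 0.48 ± 0.08, Nfkbia by 0.40 ± 0.05 and Birc3 by 0.28 ± 0.06. On the bright Nfkb2 probe set as predictor none of 7 genes was called, where 1.5% of all genes rose. In a fit on every probe set, 3 of 11 probe sets of the other genes rose with it, both of Birc3 and 1 of the 4 of Nfkbia, where 6.73% of all probe sets were called in either direction. With the varying Nfkb2 probe set in its place, all 56 ordered pairs were called, 18.8% of all genes rose with it, and Nfkb2 itself rose by 0.72 ± 0.06 per SD of Cd83 (limma adjusted p = 1.27e-12).

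Within either side of the gap the pairs did not pass the test, though the sides were set on Cd83 itself, which narrows its range in each. Among the 33 lymphomas below it, none of the 56 ordered pairs was called by limma, with 8 at an unadjusted p under 0.05, and between 0% and 8.28% of all genes were called per predictor. The SD of Cd83 was 0.62 there, against 1.99 over the 43. Per log2 unit of Cd83, the slope of Traf1 was 0.35 ± 0.11 (SE) below the gap and 0.39 ± 0.03 over the 43, and that of Bcl3 was 0.45 ± 0.19 and 0.55 ± 0.05, so that for these 2 genes the call was lost with a slope of like size. For Icam1 the slope was -0.09 ± 0.14 below the gap against 0.24 ± 0.04, and for Nfkbia 0.06 ± 0.09 against 0.20 ± 0.03. The 28 pairwise correlations there ran from -0.222 to 0.486 (Pearson r, n = 33) around a median of 0.059. Cd83 and Traf1 formed the pair with the highest r. Among the 10 lymphomas above the gap, again none of 56 was called, with 7 at an unadjusted p under 0.05. With so few arrays, Relb rose by 0.47 ± 0.08 per SD of Birc3 and was still not called (limma adjusted p = 0.54). The lack of calls therefore does not show that the genes varied apart above the gap. The slope per log2 unit of Cd83 there was 0.57 ± 0.30 for Bcl3 and, for the varying Nfkb2 probe set, 0.52 ± 0.15 against 0.36 ± 0.03 over the 43. There r ran from -0.44 for Icam1 with Bcl3 to 0.919 for Birc3 with Relb, around a median of 0.347 (n = 10), and Birc3 with Nfkbia stood at 0.835.

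Within set 2 alone the 28 values of r ran from 0.353 to 0.888 (n = 7), and these 7 lymphomas hold 1 above the gap, D163. With the T cell and macrophage scores as further covariates, 9 of 56 pairs were called, where between 0.959% and 9.42% of all genes were called per predictor. They joined Cd83 with Traf1, Bcl3 and Relb and Traf1 with Relb, each in both directions, and Icam1 with Traf1 as predictor. Relb then rose by 0.90 ± 0.16 and Traf1 by 0.50 ± 0.10 per SD of Cd83 (limma adjusted p = 0.000896 and 0.00539).

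**Figure D3:**
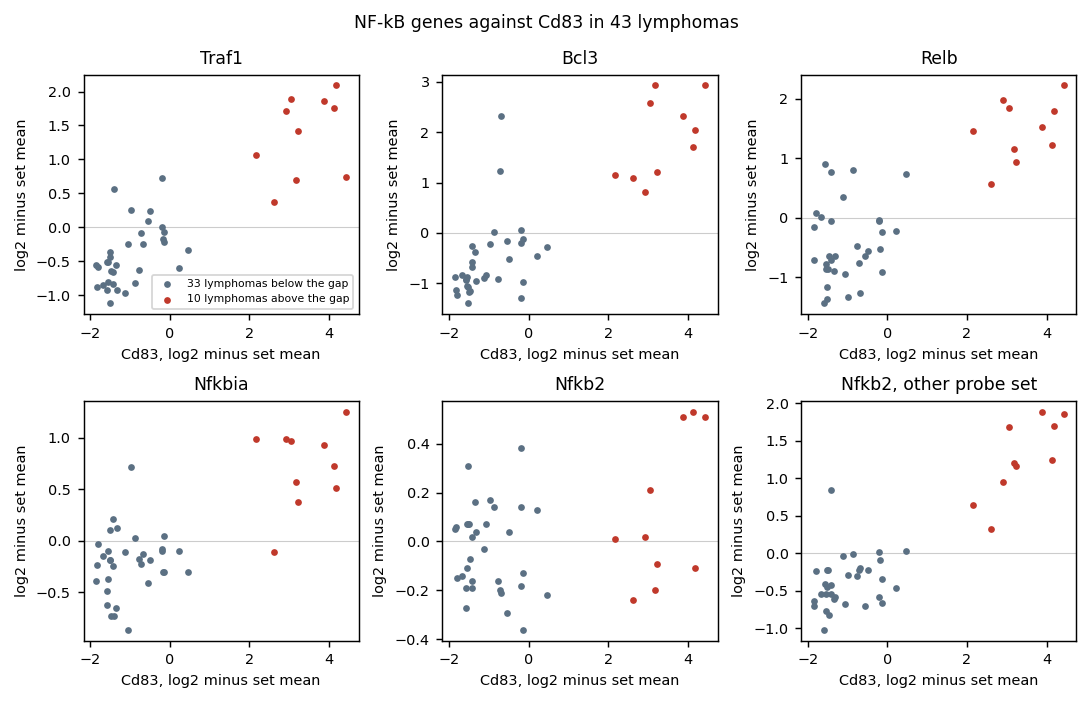
Traf1, Bcl3, Relb, Nfkbia and both Nfkb2 probe sets (vertical axes) against Cd83 (horizontal axes) in the 43 lymphomas, each point 1 lymphoma, as log2 minus the mean of the set. The 10 lymphomas above the gap (red) lie apart from the 33 below it (grey-blue) along Cd83. Per log2 unit of Cd83, the slope of Bcl3 is 0.55 over all 43, 0.45 below the gap and 0.57 above it, and that of Relb is 0.41, 0.14 and 0.29.

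Marker genes of other cell types and B cell states moved with Cd83, with which 18.3% of all genes rose. Of the marker genes of T cells 11 of 13 rose with it, of NK and cytotoxic cells 7 of 8 rose and 1 fell, of macrophages 14 of 16 rose, and of dendritic cells 5 of 6 rose. All 5 germinal centre genes and all 7 MHC class II genes rose, and 5 of 13 precursor B cell genes fell. Of plasma cell genes 6 of 8 rose, of mature B cell genes 3 of 9 rose and 2 fell, and of pan B cell genes 2 of 9 rose. None of 10 neutrophil genes and 1 of 13 stroma and endothelium genes rose. The part of these cells in the levels of the measured genes was not tested.

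Myc, the gene carried by the transgene, was the first of 6 measures on which all genes were regressed, each scaled to an SD of 1. Of the 8 measured genes 6 fell with Myc and none rose, where 16.9% of all genes fell and 26.6% rose. Cd83 fell by 1.33 ± 0.23 per SD of Myc (SE, limma adjusted p = 1.34e-05), Bcl3 by 0.79 ± 0.16, Traf1 by 0.70 ± 0.09, Relb by 0.57 ± 0.13 and Nfkbia by 0.30 ± 0.06. Icam1 fell by 0.57 ± 0.06 with the smallest adjusted p (1.59e-08). Birc3 had a slope of -0.15 ± 0.07 and the bright Nfkb2 probe set of -0.08 ± 0.03, which were not called (limma adjusted p = 0.0723 and 0.0637). The varying Nfkb2 probe set fell by 0.62 ± 0.08 (1.9e-07). Marker genes fell with Myc too, 11 of 13 of T cells, 7 of 8 of NK and cytotoxic cells and 11 of 16 of macrophages. So did 5 of 5 germinal centre and 6 of 7 MHC class II genes. Of 13 stroma and endothelium genes none was called, and of 9 pan B cell genes 1 rose. Of 13 precursor B cell genes 3 rose, and of 9 mature B cell genes 3 rose and 1 fell. The part of these cells was not tested.

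Below the gap in Cd83, Icam1 alone of the 8 fell with Myc, by 0.32 ± 0.07 per SD of Myc in those 33 lymphomas (limma adjusted p = 0.00883), where 1.36% of all genes fell. The slope of Cd83 there was 0.02 ± 0.11. These 33 lymphomas were chosen on Cd83 itself, whose SD was 0.62 there against 1.99 over the 43. That slope therefore cannot show whether Cd83 varied with Myc. The same limit applies to the fits on the scores below the gap. With the T cell and macrophage scores as covariates, Icam1 fell by 0.42 ± 0.08 and Traf1 by 0.30 ± 0.09, where 2.62% of all genes fell. All 10 lymphomas above the gap had Myc below its set mean, from -1.31 in D88 to -0.03 in D89.

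Among the other genes of the pathway, 34 of 61 fell and 7 rose with Myc, where 16.9% of all genes fell and 26.6% rose. All 6 ligands fell, among them Tnfsf9, a co-stimulatory ligand of the TNF family, by 0.59 ± 0.08 and Tnf by 0.25 ± 0.04. Of 12 receptors 9 fell, with the TNF receptor Tnfrsf1b by 0.63 ± 0.09. Of 21 targets 10 fell and 2 rose, with the peptide transporter Tap1 falling by 0.41 ± 0.07. Of 14 adaptors and kinases 4 fell and 4 rose, including Ikbkg, the regulatory subunit of the IKK complex (0.16 ± 0.04), and the kinase Map3k7 (0.13 ± 0.04). Otud7b, a deubiquitinase that restrains the pathway, rose by 0.37 ± 0.04 and Stat5a by 0.17 ± 0.04.

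The B cell stage score was the mean of mature minus that of precursor B cell genes. With it 4 of 8 measured genes rose and none fell, where 5.62% of all genes rose and 7.69% fell. Birc3 rose by 0.28 ± 0.06 (limma adjusted p = 0.000412), Cd83 by 0.89 ± 0.27, Bcl3 by 0.62 ± 0.17 and Traf1 by 0.37 ± 0.13. Birc3 was called also among the 33 lymphomas below the gap in Cd83 (0.22 ± 0.06, adjusted p = 0.0107), where 3.51% of all genes rose. It was called too with the T cell and macrophage scores as covariates (0.22 ± 0.05, adjusted p = 0.00345), where 4.28% rose, and no other measured gene was called in either fit. On its dimmer probe set Birc3 had a slope of 0.08 ± 0.05 over the 43 lymphomas that was not called (limma adjusted p = 0.372). With the varying Nfkb2 probe set in place of the bright one, Nfkb2 rose by 0.33 ± 0.11 (limma adjusted p = 0.048). The value of the dimmer Birc3 probe set comes from the fit on every probe set. In that fit the varying Nfkb2 probe set and Traf1 were not called either (limma adjusted p = 0.0674 and 0.0587). There 3 of 13 probe sets rose, those of Cd83 and Bcl3 and the brighter of Birc3, where 8.04% of all probe sets were called in either direction.

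Of the other pathway genes 12 of 61 rose with the stage score and 1 fell, where 5.62% of all genes rose and 7.69% fell. Gadd45b, a stress-response target, rose by 0.55 ± 0.11, and the receptors Cd40 and Tnfrsf13b, the latter a receptor for the B cell survival factors BAFF and APRIL, by 0.45 ± 0.11 and 0.35 ± 0.08. Bcl10, the adaptor between the antigen receptor and the IKK complex, rose by 0.18 ± 0.04. Traf6, a ubiquitin ligase of Toll-like and interleukin receptors, fell by 0.17 ± 0.04.

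The germinal centre score was the mean of 5 kept genes of B cells in germinal centres, where CD40 and antigen receptor signals act. With it 7 of 8 measured genes rose, where 15.1% of all genes rose and 23.4% fell. Cd83 rose by 1.36 ± 0.22, Traf1 by 0.75 ± 0.08 (limma adjusted p = 3.92e-10), Bcl3 by 0.70 ± 0.17, Relb by 0.61 ± 0.13 and Icam1 by 0.53 ± 0.07. Nfkbia rose by 0.26 ± 0.07 and Birc3 by 0.24 ± 0.06. The bright Nfkb2 probe set had a slope of 0.06 ± 0.03 that was not called (0.153), and the varying one rose by 0.61 ± 0.08 (1.17e-07).

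The germinal centre score had a gap of its own, with 6 lymphomas at 2.53 or more and 37 at 1.37 or less. Of the 6, D117, D78, D88, D163 and D53, were above the gap in Cd83, and D75 was not. Of the other 5 lymphomas above the gap in Cd83, D46 scored 1.37, D83 0.21, D89 -0.18, D59 -0.25 and D52 -0.49, so that D89, with the highest Cd83, did not exceed the set mean of the germinal centre score. Among the 37 lymphomas below the germinal centre gap, Cd83, Traf1, Icam1, Bcl3 and Nfkbia rose with what was left of the score (limma adjusted p between 0.000246 and 0.00997), where 9.81% of all genes rose. Relb did not pass there (0.25 ± 0.14, adjusted p = 0.214). Fitted as a mixture of 2 normal distributions, however, the score met the criterion for separate groups with 36 and 7 lymphomas. The 7 highest scores are those of the 6 lymphomas above the gap and of D46. Among the 37 below the gap, D46 stood alone with a score of 1.37, against at most 0.33 in the others. It also had high Cd83 (3.05), Traf1 (1.89) and Bcl3 (2.59). No fit was made without D46, so these slopes may rest on that lymphoma. Below the gap in Cd83, Traf1 and Icam1 rose, by 0.26 ± 0.07 and 0.28 ± 0.07, where 3.22% of all genes rose. In that fit D75 stood alone, with a score of 2.78 against at most 0.33 in the other 32 lymphomas. Without D75 the slopes of Traf1 and Icam1 were 0.21 ± 0.07 and 0.24 ± 0.07 (limma adjusted p = 0.0288 and 0.0224), where 6.01% of all genes rose, and the slope of Relb was -0.21 ± 0.10 and not called. With the T cell and macrophage scores as covariates, Cd83, Traf1, Icam1 and Relb rose, where 6.61% of all genes rose.

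Of the other pathway genes 32 of 61 rose with the germinal centre score and 5 fell, where 15.1% of all genes rose and 23.4% fell. All 6 ligands rose, with Lta, one of the lymphotoxins, by 0.88 ± 0.11 and Tnfsf9 by 0.65 ± 0.06, and 8 of 12 receptors, with Cd40 by 0.67 ± 0.08. Slamf1, a co-receptor of activated lymphocytes, rose by 0.92 ± 0.08. Of the subunits outside the 8 genes, Rel rose by 0.20 ± 0.06 and Rela had a slope of 0.07 ± 0.04 that was not called. The chemokine receptor Ccr7, which guides B cells toward the T cell zone, fell by 0.42 ± 0.10, and its slope among the 37 lymphomas below the germinal centre gap was 0.17. Stat5a, Otud7b and Tab1 fell by 0.20 ± 0.04, 0.26 ± 0.06 and 0.15 ± 0.04.

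The MHC class II score was the mean of 7 genes for antigen presentation to T helper cells. With it 7 of 8 measured genes rose, where 16.6% of all genes rose and 24.6% fell. Cd83 rose by 1.40 ± 0.22, Bcl3 by 0.94 ± 0.14 (limma adjusted p = 1.24e-06), Traf1 by 0.65 ± 0.10, Relb by 0.54 ± 0.13, Icam1 by 0.44 ± 0.08, Birc3 by 0.33 ± 0.05 and Nfkbia by 0.26 ± 0.07. Birc3 was the 1 gene called below the gap in Cd83 (0.23 ± 0.06, adjusted p = 0.0154; 2.74% of all genes rose). It was also the 1 gene called with the T cell and macrophage scores as covariates (0.29 ± 0.07, adjusted p = 0.00665; 3.03% rose). Its dimmer probe set again was not called over the 43 lymphomas (0.07 ± 0.05, adjusted p = 0.307), and the varying Nfkb2 probe set rose by 0.58 ± 0.09. Of the other pathway genes 33 of 61 rose and 5 fell, with the chemokines Ccl3 and Ccl4 rising by 1.01 ± 0.14 and 0.51 ± 0.07.

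With the T cell score, the mean of 13 kept genes, 7 of 8 measured genes rose, where 15.3% of all genes rose and 23.2% fell. Traf1 rose by 0.73 ± 0.08 (limma adjusted p = 6.03e-09), Cd83 by 1.38 ± 0.22, Bcl3 by 0.96 ± 0.13, Icam1 by 0.43 ± 0.09, Relb by 0.38 ± 0.15, Nfkbia by 0.28 ± 0.07 and Birc3 by 0.19 ± 0.07. Below the gap in Cd83, Traf1 (0.31 ± 0.06) and Bcl3 (0.42 ± 0.11) rose with it, where 6.22% of all genes rose, and Relb had a slope of -0.24 ± 0.10 (adjusted p = 0.134). With the macrophage score as a covariate, 5 genes rose, all but Birc3, Relb and Nfkb2, where 11.1% of all genes rose. The varying Nfkb2 probe set rose by 0.50 ± 0.10 with the T cell score. Of the other pathway genes 30 of 61 rose with it and 5 fell, where 15.3% of all genes rose and 23.2% fell. The strongest rises were those of the co-stimulatory receptor Cd27 (0.85 ± 0.08), the lymphotoxin subunit Ltb (1.16 ± 0.14), Tap1 (0.45 ± 0.06) and Ccl4 (0.49 ± 0.07). Otud7b, Ikbkg, Map3k7 and Traf6 fell by 0.27 ± 0.05, 0.18 ± 0.04, 0.16 ± 0.03 and 0.16 ± 0.04. The part of T cells in these slopes was not tested.

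With the macrophage score, the mean of 16 kept genes, 7 of 8 measured genes rose, where 18.2% of all genes rose and 28.1% fell. Cd83 rose by 1.38 ± 0.22, Bcl3 by 0.87 ± 0.15, Relb by 0.70 ± 0.11, Traf1 by 0.52 ± 0.11, Icam1 by 0.43 ± 0.09, Nfkbia by 0.33 ± 0.06 and Birc3 by 0.24 ± 0.06. None was called below the gap in Cd83, where limma called 3.03% of all genes higher and 2 of the 8 had an unadjusted p under 0.05. The 2 went opposite ways, Relb with a slope of 0.26 ± 0.10 and the bright Nfkb2 probe set with a slope of -0.08 ± 0.03. The varying Nfkb2 probe set rose by 0.52 ± 0.09 over the 43. With the T cell score as a covariate 7 genes rose, all but Nfkb2, where 14.5% of all genes rose. The pathway genes with the strongest statistic were Ier3, an early response gene (0.66 ± 0.07), the receptor Tlr7 (0.69 ± 0.09), the adhesion molecule Vcam1 (0.72 ± 0.10) and the lymphotoxin beta receptor Ltbr (0.34 ± 0.05).

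**Figure D4:**
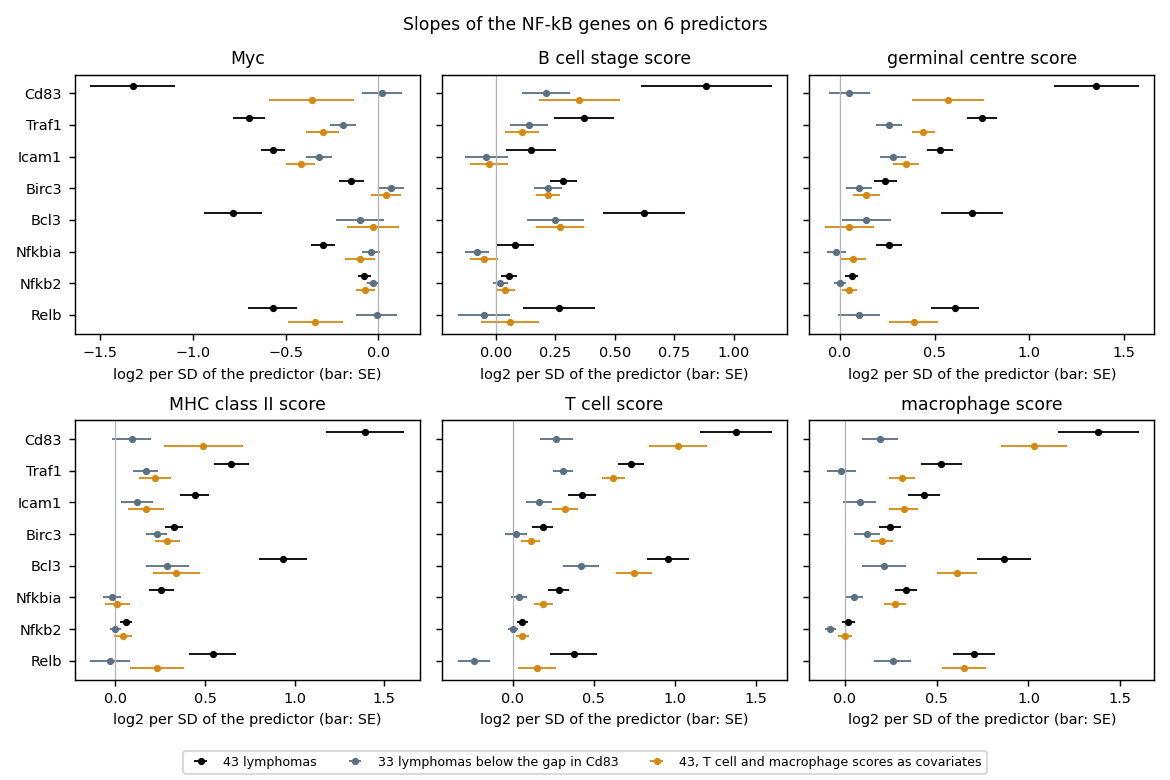
Slope of each measured gene (log2 units per SD of the predictor, with bars of 1 SE) on Myc, the B cell stage score and 4 other scores in 43 lymphomas (black), in the 33 below the gap in Cd83 with the predictor scaled among them (grey-blue), and in 43 lymphomas with T cell and macrophage scores as covariates (orange). Black slopes on Myc are at or below -0.08 and grey-blue slopes lie nearer to 0, with that of Icam1 farthest from it at -0.32. The 33 lymphomas were chosen on Cd83 itself, which narrows its range among them.

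The spleen was compared with the lymphomas, set as a covariate, with the spread taken from the lymphomas because the spleen was 1 array. None of the 8 genes was called by limma, and none had an unadjusted p under 0.05, where 13.4% of all genes were called, 7.61% higher and 5.81% lower in the spleen. Bcl3 had the widest difference, 1.86 ± 1.35 (SE) higher in the spleen with a 95% interval of -0.86 to 4.58 (limma adjusted p = 0.376). For Cd83 the difference was -0.52 with an interval of -4.73 to 3.70, and for Relb -0.15 with an interval of -2.31 to 2.02. The narrowest interval, -0.46 to 0.52, was that of the bright Nfkb2 probe set. These intervals do not show that the spleen and the lymphomas had equal levels.

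In the spleen 4 of the other 61 pathway genes were higher and none was lower, against 7.61% and 5.81% of all genes, so that the share higher was no larger than that of all genes. They were Bcl2l1, a survival gene of the Bcl2 family (2.72 ± 0.30), Ltbr (2.0 ± 0.49), the TNF receptor Tnfrsf1a (2.11 ± 0.65) and Vcam1 (2.99 ± 1.0). Genes of other cells were higher in the same contrast, with 9 of 10 erythroid, 8 of 10 neutrophil, 5 of 13 stroma and endothelium and 3 of 16 macrophage genes. Their part in the differences was not tested.

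The genes most like each measured gene were the 5 with the highest Pearson r over the 43 centred lymphomas. Because the lymphomas formed separate groups along Cd83, r is given on each side of the gap, below (n = 33) and above (n = 10), as a description. For Cd83 the 5 were Casp4, an inflammatory caspase, at 0.524 and 0.489, Tent5c at 0.531 and 0.29, Traf1 at 0.486 and 0.299, the transcription factor Stat3 at 0.375 and 0.179, and Tapbp, a chaperone of MHC class I loading, at 0.39 and 0.009. For Bcl3 they were the granzyme Gzmk at 0.822 and 0.846, Ccl3 at 0.831 and 0.685, the interferon-induced GTPase Igtp at 0.744 and 0.698, the granzyme Gzmb at 0.696 and 0.849, and the transcription factor Irf1 at 0.692 and 0.741. For Bcl3 these values ran from 0.692 to 0.831 below the gap and from 0.685 to 0.849 above it, and for Cd83 from 0.375 to 0.531 and from 0.009 to 0.489. Gzmk and Gzmb are members of the marker list of NK and cytotoxic cells.

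Traf1 was followed most closely by Bhlhe40, a transcription factor of activated lymphocytes (0.654 below and 0.758 above), Fam102a (0.747 and 0.902), Tent5c (0.786 and 0.42), Helz2 (0.657 and 0.8) and Rgs10 (0.675 and 0.827). Icam1 was followed by Tnfsf9 (0.743 and 0.785), Map2k1 (0.57 and 0.669), Plaat3 (0.599 and -0.057), Helz2 (0.601 and 0.106) and Ap1s2 (0.653 and 0.709). Relb was followed by Cyp4v3 (0.686 and 0.489), Casp4 (0.547 and 0.506), Ms4a6d (0.613 and 0.157), Nab2 (0.584 and 0.747) and Egr1, an immediate early gene of antigen receptor signals (0.636 and 0.419).

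Birc3 was followed by Ciita, the master regulator of MHC class II genes and a member of that marker list (0.605 and 0.371). Next came Itpr2 (0.528 and 0.791), Id2 (0.625 and -0.106), the class II gene H2-Ab1 (0.575 and 0.029) and Mdfic (0.539 and 0.286). Nfkbia was followed by Tapbp (0.394 and 0.556), Laptm4b (0.46 and 0.833), Ms4a6c (0.208 and 0.807), the kinase gene Map3k8 (0.277 and 0.652) and Tmem176a (0.493 and 0.506). The bright Nfkb2 probe set was followed by Egfr (0.625 and 0.868), Slc35e4 (0.692 and 0.701), Il13 (0.541 and 0.863), Srms (0.517 and 0.666) and Lce3c (0.472 and 0.733), none of which was on the pathway list. All likenesses share the arrays, and genes are not independent replicates.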

How the data were processed

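Total RNA of 43 lymphomas and 1 spleen was measured on Affymetrix arrays. The authors deposited log2 expression per probe set, which per the submitters' processing notes came from RMA (affy package, version not given). Arrays have no read depth, and their number limits the precision. Of 22626 probe sets that are not controls, 20380 had 1 symbol and were used. Each gene took its probe set with the highest mean and passed the filter when 1 or more arrays exceeded their set's median. Sets follow title numbers, up to D117 and above, since column medians differ, and the labels do not state separate runs.

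All kept genes were fitted with limma 3.58.1 in R 4.3.3 (lmFit, eBayes with trend, set as covariate, two-sided, Benjamini-Hochberg adjustment over all kept genes, threshold 0.05), with predictors scaled to an SD of 1. Scripts were tested on simulated data. A measure counted as separate groups when a mixture of 2 normals (mclust 6.1.1) gained over 10 in BIC with an Ashman D over 3 and at least 3 lymphomas in each group. No 2 arrays were identical. The members, lists and tests were chosen with earlier results of these data known. Named were all members with their probe sets, the 5 likest genes of each, up to 4 pathway genes per direction in each comparison by the statistic, and the lymphomas at the extremes, while D46, D55, D75, D83, D92 and D121 were singled out after their values were seen. Alternatives concerned the filter, probe sets, set covariate, normalization, eBayes settings, array weights (statmod 1.5.0), sets alone, T cell and macrophage covariates, ranks and lymphomas left out. Fits within either side of the gaps, of set 2 regressions, with other probe sets and without D55, D59, D92 and D121 were added after seeing the data.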

Additional observations from a re-analysis of the deposited data

How the results depend on the processing

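Counts of called genes or pairs stayed within 1.5 times in 130 cases, moved further in 13 and fell to 0 in 14. For single genes 1678 values stayed the same, 4 spreads moved, 275 calls were lost, 13 were gained and 60 values turned sign. Staying the same meant direction and side of the threshold for a fit, size for a spread and a like r for the likest genes. The likest genes were compared with set 1 alone, whose lymphomas are among those on which these genes were picked. The counts that moved did so with the choice of lymphomas or with the T cell and macrophage scores as covariates. As a scaled median absolute deviation, the spread was 1.09 for Cd83, 0.74 for Bcl3 and 0.31 for Nfkbia. The cause of the differences was not tested.

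With the T cell and macrophage scores as covariates, 2 measured genes were called with Myc, 1 with the B cell stage score, 4 with the germinal centre score and 1 with the MHC class II score, and 9 ordered pairs. Between 0.959% and 9.42% of all genes were called per predicting gene. Slopes turned sign for Birc3 on Myc (0.04), Icam1 (-0.03) and Nfkbia (-0.05) on the stage score and Nfkb2 on the macrophage score (0), as did the spleen difference of Traf1 (-0.06) and Nfkbia (-0.16). None of these was called.

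In the 33 lymphomas below the gap in Cd83, 1 gene was called with Myc, 1 with the stage score, 2 with the germinal centre score, 1 with the MHC class II score, 2 with the T cell score and 0 with the macrophage score, and 0 pairs. These lymphomas were chosen on Cd83 itself, which narrows its range among them. Slopes that turned sign there, none of them called, were those of Cd83 (0.02) and Birc3 (0.07) on Myc, and of Icam1 (-0.04), Nfkbia (-0.08) and Relb (-0.05) on the stage score. On the germinal centre score they were Nfkbia (-0.02) and Nfkb2 (0), on the MHC class II score Nfkbia (-0.02), Nfkb2 (0) and Relb (-0.03), on the T cell score Relb (-0.24), and on the macrophage score Nfkb2 (-0.08) and Traf1 (-0.02). Without D75 as well, chosen after seeing the data, 2 genes were called with the germinal centre score, and the slopes of Nfkb2 (-0.02), Relb (-0.21), Slamf1 (-0.09), Cd40 (-0.09), Lta (-0.18), Stat5a (0.06) and Ccr7 (0.08) turned sign, none of them called.

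In the 10 lymphomas above the gap, 0 genes were called with each of the 6 predictors and 0 pairs, with 1 at an unadjusted p under 0.05 for each predictor. Traf1 rose by 0.48 ± 0.12 per SD of the germinal centre score there and was not called (limma adjusted p = 0.126). These lymphomas are few and were chosen on Cd83 itself, so the counts of 0 do not show that slopes were absent. Slopes turned sign for Birc3 (0.01), Bcl3 (0.05), Nfkbia (0.04) and Relb (0.01) on Myc, for Icam1 (0) and Gadd45b (-0.15) on the stage score, for Bcl3 (-0.30) and Nfkbia (-0.03) on the germinal centre score, for Nfkbia (-0.05) on the MHC class II score and for Otud7b (0.02) on the T cell score. On the macrophage score they turned for Cd83 (-0.47), Traf1 (-0.19), Icam1 (-0.02), Birc3 (-0.04), Bcl3 (-0.03), Nfkb2 (-0.05), Relb (-0.05) and Traf6 (0.06). None of these was called.

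In the 7 lymphomas of set 2 alone, 0 genes were called with Myc, the stage score, the MHC class II score and the T cell score, 3 with the germinal centre score and 3 with the macrophage score, where 7.98% and 5.35% of all genes were called, and 0 pairs, where between 0% and 4.43% were called per predicting gene. The unadjusted p was under 0.05 for 6, 1, 5 and 3 genes in the first 4 and for 33 pairs, and Icam1 turned to -0.17 on the stage score. Within set 2, D163 stood alone on the germinal centre score (2.75, against at most -0.28 in the others) and on the macrophage score (2.51, against at most 0.16). It also held the highest value of set 2 for each measured gene, so the calls with these scores may rest on that array. Without the set covariate, the spleen differences of Cd83 (0.28), Icam1 (0), Birc3 (0.14) and Relb (0.30) and the slope of Nfkb2 on Myc (0.05) turned sign. With equal column medians those of Traf1 (-0.06) and Nfkb2 (-0.09) in the spleen did, and with array weights those of Cd83 (0.03) and Relb (0.18).

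The slope of the bright Nfkb2 probe set on the macrophage score turned to -0.01 with equal column medians and with array weights, to -0.02 in set 1 alone and without the 2 lymphomas farthest from the median of the predictor, and to -0.06 on ranks. The slope of Ccr7 on the germinal centre score turned to 0.17 below the gap of that score. With the other Birc3 probe set 33 pairs were called, and with the other Nfkb2 probe set 56. No paired analysis was possible because each lymphoma is a single array with a title number of its own.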
